A study of Sus scrofa with 44 samples.

Results

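The sarcomere, the contractile unit of striated muscle, is built from thin actin filaments, thick myosin filaments, the Z-disc that anchors the thin filaments at each end and the M-band that links the thick filaments in the middle. The genes described here are 43 genes of these structures and of the proteins that assemble, guard or turn them over, chosen by the known role of their products, with no measured value in the rule itself. Of the 22427 genes in the deposited expression table, 34 carry the symbol of one of the 43, and all 34 passed the filter of a mean of at least 1 TPM (transcript abundance relative to the whole library), as did 13334 genes in all. The other 9 (TPM3, LMOD3, TTN, MYOZ2, LDB3, FHL1, XIRP1, KLHL41 and HSPB7) have no TPM row under their symbol. By role, 8 are thin filament genes, 7 belong to the thick filament, titin and the M-band, 11 to the Z-disc core and the intermediate filaments, 6 encode LIM or PDZ proteins, 4 ankyrin repeat or Xin proteins, and 7 assembly, chaperone or turnover factors.

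Back muscle (longissimus dorsi) of pig fetuses was sampled at 33, 40, 50, 60, 70 and 95 days after conception, called E33 to E95. At each stage 3 input RNA libraries, depleted of ribosomal RNA, gave TPM values, and matching libraries of RNA precipitated with an antibody against N6-methyladenosine (m6A), a methyl mark on adenosines of mRNA, gave 1 deposited list of enriched regions (peaks). PK15, an established pig kidney epithelial line, gave 2 peak lists, one from polyA-selected and one from ribosomal RNA-depleted RNA. No treatment or genetic change is named in the labels, and breed, litter, pooling and the separateness of the animals behind the 3 libraries of a stage are not given either, so that p-values measure the spread between libraries.

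Actin, tropomyosin, nebulin and leiomodin form and measure out the thin filament. Titin spans from Z-disc to M-band, myosin-binding protein C lies along the thick filament, and myomesins cross-link it at the M-band. In the Z-disc, alpha-actinin cross-links actin, and telethonin, myozenins, myotilin, myopalladin and filamin C bind around it. Several of these proteins have one gene favoured in heart or early muscle and another favoured in mature or fast skeletal fibres, and m6A is placed by a methyltransferase complex that prefers a short motif around the methylated A.

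Each library's TPM was multiplied by a median-ratio factor (scaled TPM), because a gene with no symbol, ENSSSCG00000032395, took between 37.4% and 72.4% of the deposited TPM, depending on the library. The median change of all genes from E33 to E95 was 0.00 log2 after scaling and -1.02 log2 in the TPM as deposited. Values are given as scaled TPM of libraries 1, 2 and 3, and changes in log2(scaled TPM + 1), tested with limma and Benjamini-Hochberg adjustment over all 13334 genes. TPM adjusts for transcript length, so levels can be set beside each other between genes. Read depth is unknown, since TPM sums to 1000000 in every library.

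From E33 to E95 most of the measured sarcomere genes rose. Of the 34, 30 passed the test, 29 higher and 1 lower, while 46.7% of all genes passed in either direction and 23.7% as higher. The median change of the 34 was 2.06 log2, beside 0.00 for all genes tested. On the TPM as deposited 18 passed, 14 higher and 4 lower, with a median of 0.86 log2 against -1.02 for all genes, where 48.5% of all genes passed and 2.64% passed as higher. Across the 6 stages all 34 differed by limma's F test, against 47.3% of all genes, and 19 of 34 against 20.1% on the TPM as deposited. The E33 and E95 libraries overlapped for PDLIM7, FHL3 and ANKRD1 alone among the 34.

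**Figure D1:**
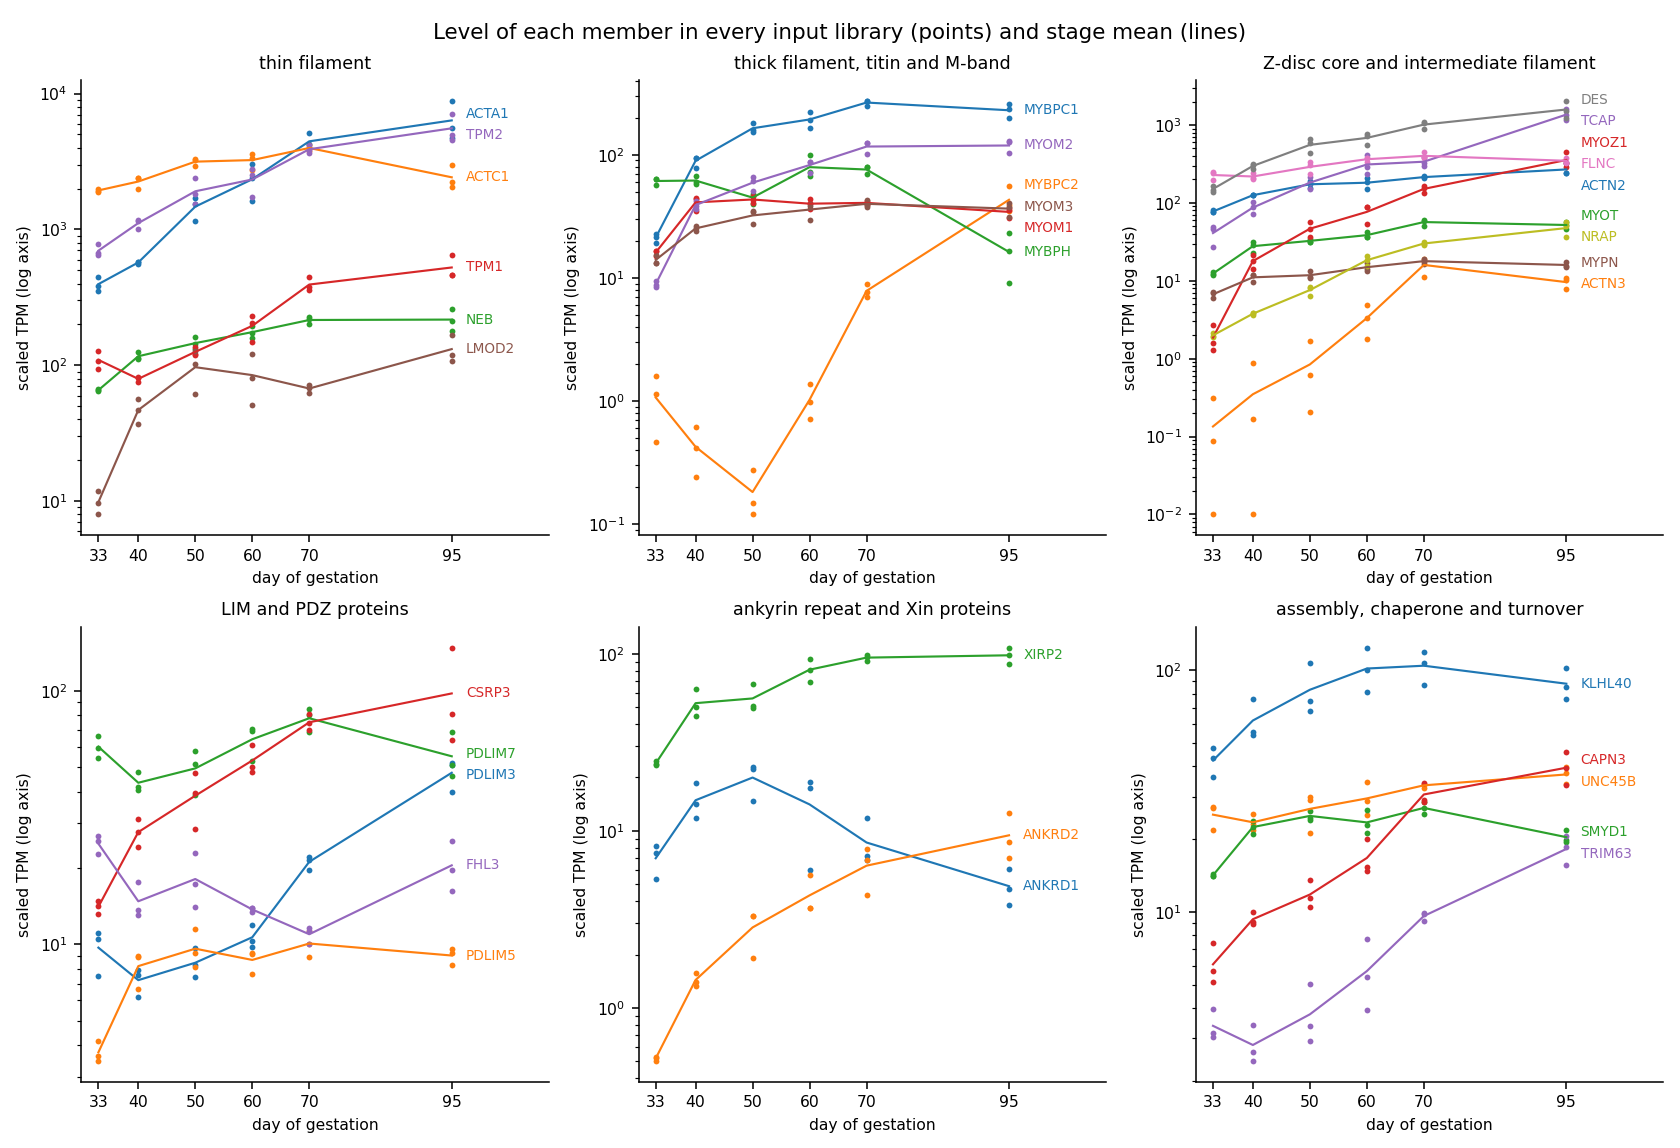
Scaled TPM (log axis) of the 34 measured genes in each of the 3 libraries at E33, E40, E50, E60, E70 and E95, by role, with lines through the stage means and values of 0 drawn at 0.01. ACTA1 starts between 351 and 449.7 and ends between 4677 and 8816, and MYOZ1 starts between 1.29 and 2.71 and ends between 286 and 451.

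The stage of the highest mean was E95 for 19 of the 34 genes and E70 for 11, and the lowest mean fell at E33 for 24. Libraries stood apart at E40 and E50: ENSSSCG00000032599 took 17.3% of TPM in E40 library 2 and 14.4% in E50 library 3, whose scaling factors were 2.15 and 3.32, and E50 library 3 had 8691 genes at 1 TPM or more, the fewest of the 18. Without both, the same tests called 34 genes across stages, 30 from E33 to E95 and 20 from E33 to E40. Within E50, library 3 held the highest value for 21 of 34 genes. Within E95, library 2 held the highest of the 3 values for 24 of 34 genes and the lowest for 0. Within E70, library 2 held the lowest for 29. The part of these library differences in any result was not tested beyond the fits without each library.

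Bulk muscle holds several cell types, and a larger share of muscle cells cannot be told apart from more RNA per cell. The summed scaled TPM of 10 matched skeletal muscle markers (of 11 listed) was 2990 to 3531 at E33 and 13905 to 18416 at E95. That of 5 matched neuron markers (of 6) was 104 to 134 at E33 and 2.48 to 4.83 at E95, and that of 5 cartilage markers 115 to 163 and 29.5 to 37.7. The sum of 5 erythroid markers of 6 listed went from 87.8–236 to 15.7–31.4, and that of 5 smooth muscle markers from 52.0–77.2 to 24.4–64.6. That of 5 endothelial markers went from 19.1–23.9 to 63.1–75.2, and that of 5 fibroblast markers from 2261–3018 to 4832–7555. That of 4 adipocyte markers went from 0.664–1.91 to 5.90–53.1. Members of a list differed. Skeletal muscle means fell for MYH3 (2215 to 1075) and CHRNA1 (34.2 to 17.6), and MYOG stayed near its level (124 and 120). They rose for MYOD1, MYF6, CKM, CACNA1S, MYH8, TNNI2 and TNNT3. MYH3, MYH8, TNNI2 and TNNT3 are themselves sarcomere genes, so that the sum is not a separate gauge of muscle cells. Erythroid means fell for HBZ (129.6 to 2.10) and SLC4A1 (1.75 to 0.407). They were higher at E95 for HBM (13.9 to 17.9), ALAS2 (1.27 to 1.55) and AHSP (1.98 to 3.12). Fibroblast means rose for COL1A1 (1957 to 4641), COL3A1 (626 to 1306) and DCN (23.9 to 49.0). They fell for PDGFRA (43.9 to 18.7) and LUM (51.9 to 34.8). Of the smooth muscle means, that of TAGLN fell (48.5 to 19.8) and that of CNN1 was level (16.8 and 16.9). Those of MYH11 (0.205 to 2.56), ACTG2 (0.142 to 0.612) and MYOCD (0.283 to 0.404) were low and higher at E95. The 5 matched cardiac markers of 8 summed to 153 to 212 at E33, 528 to 649 at E70 and 251 to 376 at E95. At those stages MYH6 had means of 55.3, 319 and 280, and MYL4 of 131, 264 and 32.8. HAND2 had means of 0, 3.77 and 2.01, and NKX2-5 of 0, 0.178 and 0. NPPB, a natriuretic peptide gene of heart muscle, was listed at 0 in every library of those 3 stages. The part of these shifts in the changes below was not tested.

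Thin filament genes rose, with 5 of the 6 measured members passing as higher, against 23.7% of all genes. The median of the 6 was 2.60 log2. ACTA1, skeletal muscle alpha-actin (chr14:60412651-60415687 on the RefSeq annotation of Sscrofa11.1), had 386, 351 and 449.7 scaled TPM at E33 and 4677, 8816 and 5528 at E95. The lowest E95 library lay far above the highest E33 library, a change of 3.95 log2 (SE 0.25, limma adjusted p = 1.42e-08). ACTC1, cardiac alpha-actin, which developing skeletal muscle also uses, had 1999, 1919 and 1891 scaled TPM at E33, 3962, 3799 and 4163 at E70, and 2219, 2971 and 2064 at E95. Its E33 and E95 libraries did not overlap, yet the change of 0.30 log2 (SE 0.14) missed the threshold (limma adjusted p = 0.0958) and was -0.97 log2 on the TPM as deposited. ACTC1 was the most abundant of the 34 at E33, with 47.3% of their summed scaled TPM, and held 11.9% at E95. The share of ACTA1 in that sum was 9.67% at E33 and 31.3% at E95.

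LMOD2, a leiomodin that nucleates and lengthens thin filaments, had 9.75, 8.0 and 11.8 scaled TPM at E33 and 108, 168 and 119 at E95. That change was 3.60 log2 (SE 0.30, limma adjusted p = 2.37e-07), and LMOD2 had reached 37.0, 56.6 and 47.1 by E40. TPM2, beta-tropomyosin, which lies along actin and gates myosin binding, had 666, 647 and 780.1 scaled TPM at E33 and 4980.0, 7094 and 4558 at E95, all E95 values above all E33 values. It rose by 2.97 log2 (SE 0.21, limma adjusted p = 3.44e-08). TPM1, alpha-tropomyosin, had 93.2, 109 and 127 scaled TPM at E33 and 459.7, 653 and 462 at E95, and rose by 2.24 log2 (SE 0.18, limma adjusted p = 1.21e-07). On the TPM as deposited the TPM1 change was 0.97 log2 and did not pass (limma adjusted p = 0.115). NEB, nebulin, the giant protein that runs along the thin filament, had 65.5, 67.0 and 64.6 scaled TPM at E33 and 180.3, 212 and 259 at E95, a rise of 1.69 log2 (SE 0.13, limma adjusted p = 7.91e-08) that did not pass unscaled (0.43 log2, limma adjusted p = 0.48).

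All 6 measured thick filament and M-band genes passed, 5 higher and 1 lower, against 46.7% of all genes in either direction. The median of the 6 was 2.35 log2. MYBPC2, fast-type myosin-binding protein C (chr6:55281991-55310184), had 0.460, 1.61 and 1.13 scaled TPM at E33. It stood at 0.120, 0.149 and 0.277 at E50, 8.84, 7.01 and 7.68 at E70, and 34.7, 38.9 and 55.9 at E95. The E50 libraries lay below all E33 libraries and the E95 libraries above all others, and the change from E33 to E95 was 4.43 log2 (SE 0.21, limma adjusted p = 8.15e-10). MYBPC1, slow-type myosin-binding protein C, had 19.3, 21.7 and 22.7 scaled TPM at E33 and 199, 257 and 236 at E95. Its change was 3.38 log2 (SE 0.13, limma adjusted p = 1.58e-10), and its libraries of E70 (273, 251 and 274) were already as high as those of E95.

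MYOM2, a myomesin of the M-band favoured in fast fibres, had 8.78, 8.43 and 9.46 scaled TPM at E33 and 103, 126 and 129 at E95. It rose by 3.60 log2 (SE 0.13, limma adjusted p = 8.59e-11). MYOM3, another myomesin, had 13.3, 13.3 and 15.4 at E33 and 31.6, 40.5 and 37.6 at E95, a rise of 1.32 log2 (SE 0.13, limma adjusted p = 1.27e-06). On the TPM as deposited the MYOM3 change was 0.10 log2. The third myomesin gene, MYOM1, rose by 1.05 log2 after scaling and read -0.18 log2 on the TPM as deposited.

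MYBPH, a myosin-binding protein related to MYBPC and lacking part of its length (chr9:113872439-113884544), was the 1 gene of the 34 that passed as lower. It had 63.6, 57.1 and 63.3 scaled TPM at E33, 79.0, 69.9 and 79.1 at E70, and 23.3, 16.4 and 9.05 at E95. All E95 libraries lay below every library of the other stages, and the change from E33 was -1.94 log2 (SE 0.24, limma adjusted p = 9.81e-06). Peaks under the identifier of CHI3L1 lie in RefSeq exons of MYBPH, on the same strand, at E50, E60 and E70. Counting by strand would not separate them. How reads of overlapping models were counted is not given in the sources used here, so reads may be split between the 2 genes. A peak under the identifier of LPIN2 likewise lies in RefSeq exons of MYOM1 at E33.

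The Z-disc core and intermediate filament genes had the largest median change of the 6 role groups, 3.22 log2. All 9 measured members passed as higher, against 23.7% of all genes. MYOZ1, myozenin 1, a calcineurin-binding Z-disc protein of fast fibres (chr14:76445109-76453014), had 1.29, 1.58 and 2.71 scaled TPM at E33 and 18.2, 21.2 and 14.3 at E40. By E95 it had 328, 451 and 286. That is a 191-fold ratio of the means and a change of 6.96 log2 (SE 0.25, limma adjusted p = 8.59e-11), and it had moved from 31st of 34 in level at E33 to 7th at E95. TCAP, telethonin, which caps titin in the Z-disc, had 46.6, 26.9 and 49.4 scaled TPM at E33, 390.4, 300.1 and 323 at E70, and 1329.8, 1596 and 1154 at E95. Its lowest E95 library stood above its highest E70 library, and the change from E33 was 5.05 log2 (SE 0.25, limma adjusted p = 1.16e-09).

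NRAP, a nebulin-related protein of assembling myofibrils, had 1.90, 1.97 and 2.11 scaled TPM at E33 and 36.2, 56.2 and 50.0 at E95, a rise of 4.0 log2 (SE 0.14, limma adjusted p = 8.59e-11). DES, desmin, the intermediate filament that ties neighbouring Z-discs together, had 148, 138 and 166 at E33 and 1491, 2035 and 1216 at E95. It rose by 3.35 log2 (SE 0.19, limma adjusted p = 5.95e-09). In both genes no E95 library came near the E33 range.

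ACTN3, the alpha-actinin of fast fibres, was near or at the bottom of the table early. It had 0.315 and 0.0888 scaled TPM and was listed at 0 in the third library at E33, and had 17.5, 11.2 and 19.2 at E70 and 7.74, 10.9 and 10.2 at E95. Its E95 libraries lay above all E33 libraries and below all E70 libraries, and the change from E33 was 3.22 log2 (SE 0.33, limma adjusted p = 1.79e-06), on a scale whose added 1 understates change at such low levels. ACTN2, the alpha-actinin of all striated fibres, had 80.2, 75.5 and 77.0 at E33 and 243, 322 and 240.4 at E95. It rose by 1.77 log2 (SE 0.13, limma adjusted p = 7.72e-08), and its 0.50 log2 on the TPM as deposited did not pass (limma adjusted p = 0.386).

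The other 3 measured Z-disc genes rose too. MYOT, myotilin, which bundles actin, rose by 1.98 log2, and MYPN, myopalladin, which joins nebulin to alpha-actinin, by 1.14 log2. FLNC, filamin C, an actin cross-linker, rose by 0.61 log2 (SE 0.14, limma adjusted p = 0.00244). On the TPM as deposited the values were 0.76, -0.02 and -0.66 log2.

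The LIM and PDZ proteins, adaptors at the Z-disc and its neighbouring filaments, were split. Of the 5 measured, 3 passed as higher, against 23.7% of all genes. The median of the 5 was 1.08 log2. On the TPM as deposited 1 passed as higher and 2 as lower, against 2.64% and 45.8% of all genes. CSRP3, muscle LIM protein, had 14.8, 13.2 and 14.1 scaled TPM at E33 and 80.8, 148 and 63.9 at E95, a rise of 2.62 log2 (SE 0.25, limma adjusted p = 7.26e-07). PDLIM3, an alpha-actinin-binding PDZ and LIM protein, had 7.47, 11 and 10.5 at E33 and 39.7, 51.7 and 51.0 at E95, a rise of 2.19 log2 (SE 0.15, limma adjusted p = 2.8e-08) that did not pass on the TPM as deposited (limma adjusted p = 0.109). PDLIM5, of the same family, rose by 1.08 log2 and read -0.0093 log2 on the TPM as deposited.

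PDLIM7 and FHL3 did not pass between E33 and E95. PDLIM7, a PDZ and LIM adaptor expressed widely outside muscle, had 59.6, 54.4 and 66.3 scaled TPM at E33 and 45.9, 68.7 and 50.7 at E95, overlapping ranges (-0.14 log2, SE 0.17, limma adjusted p = 0.541). FHL3, made of LIM domains, had 26.7, 22.7 and 25.4 at E33, 11.6, 11.3 and 10 at E70, and 19.6, 25.6 and 16.3 at E95. The E70 libraries were below all of E33 and E95, while E33 and E95 overlapped (-0.29 log2, SE 0.17, limma adjusted p = 0.181). In the deposited TPM both passed as lower, PDLIM7 at -1.40 log2 and FHL3 at -1.52 log2 (limma adjusted p = 0.0208 and 0.011).

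Of the 3 measured ankyrin repeat and Xin genes, 2 passed as higher, against 23.7% of all genes. The median of the 3 was 1.98 log2. XIRP2, a Xin repeat protein that binds actin and filamin, had 24.6, 23.7 and 23.6 scaled TPM at E33 and 87.5, 98.2 and 108 at E95, a rise of 1.98 log2 (SE 0.15, limma adjusted p = 8.51e-08) that did not pass on the TPM as deposited (limma adjusted p = 0.264). ANKRD2, a stretch-responsive ankyrin repeat protein of slow skeletal fibres, had 0.530, 0.50 and 0.523 at E33 and 8.66, 12.6 and 7.03 at E95, a rise of 2.75 log2 (SE 0.22, limma adjusted p = 1.66e-07). ANKRD1, its relative known from heart, had 7.46, 5.32 and 8.21 at E33, 22.8, 14.7 and 22.4 at E50, and 3.82, 6.11 and 4.67 at E95. ANKRD1 was therefore highest in mid-gestation, and its E33 and E95 libraries overlapped (-0.45 log2, SE 0.34, limma adjusted p = 0.31). By the deposited TPM ANKRD1 passed as lower, at -1.54 log2 (limma adjusted p = 0.0256).

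All 5 measured assembly, chaperone and turnover genes passed as higher, against 23.7% of all genes. The median of the 5 was 1.04 log2. CAPN3, calpain 3, a muscle protease bound to titin, had 7.40, 5.67 and 5.13 scaled TPM at E33 and 33.6, 39.2 and 45.7 at E95, a rise of 2.52 log2 (SE 0.15, limma adjusted p = 7.7e-09). TRIM63, the ubiquitin ligase MuRF1, had 3.14, 3.97 and 3.02 at E33 and 15.7, 18.5 and 20.5 at E95, a rise of 2.13 log2 (SE 0.20, limma adjusted p = 5.86e-07) that did not pass on the TPM as deposited (limma adjusted p = 0.0616). The myosin chaperone UNC45B and the methyltransferase SMYD1, both needed to assemble thick filaments, rose by 0.54 and 0.49 log2, and KLHL40, which stabilises nebulin and leiomodin, by 1.04 log2. These 3 read -0.70, -0.72 and -0.22 log2 on the TPM as deposited.

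**Figure D2:**
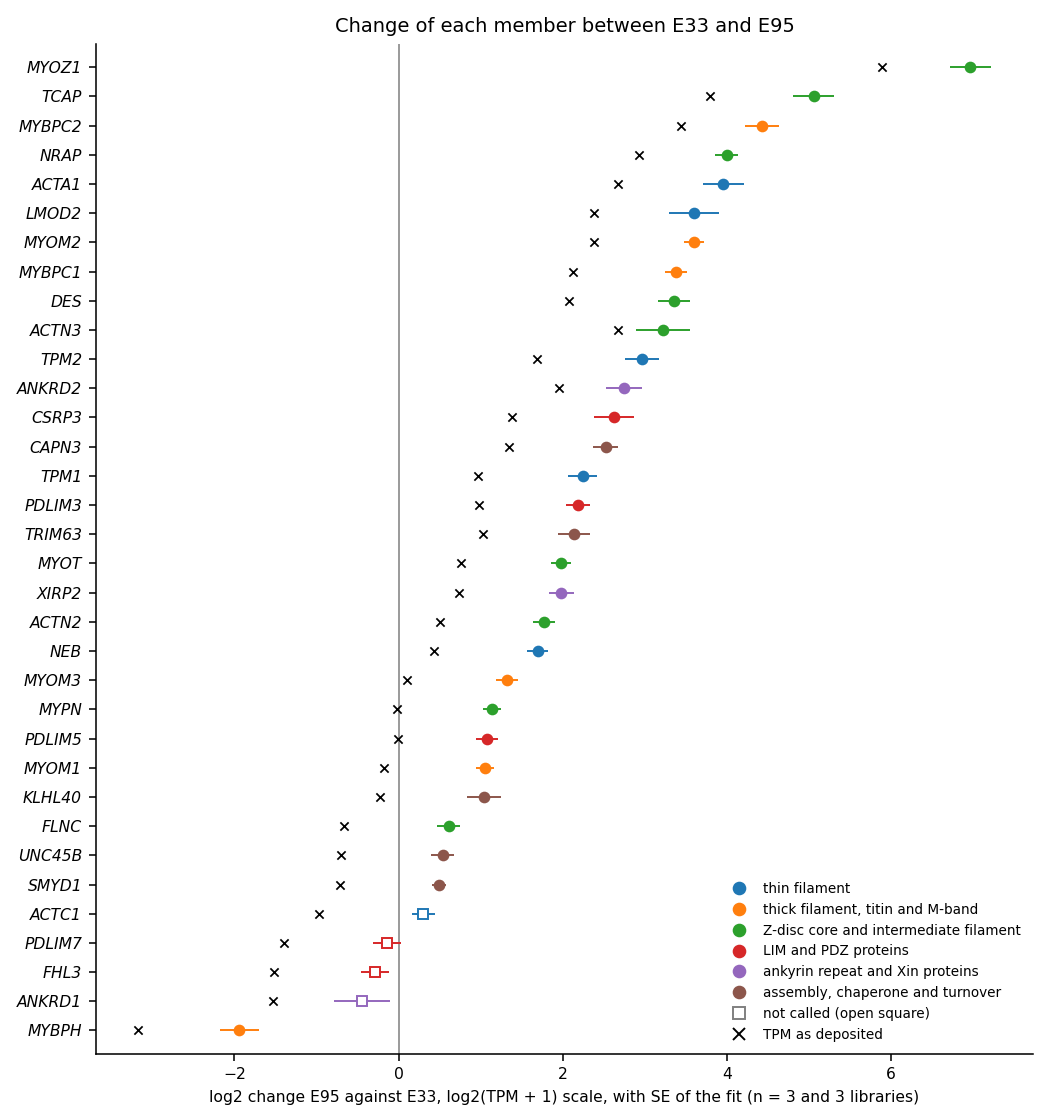
Change from E33 to E95 in log2(scaled TPM + 1), with SE, for each of the 34 measured genes. The change on the TPM as deposited stands beside it. MYOZ1 stands at the top with 6.96 and MYBPH at the bottom with -1.94.

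Setting each stage against the one before showed when the sarcomere genes moved. From E33 to E40, 21 of 34 passed, 20 higher and 1 lower, against 20.9% of all genes in either direction and 9.97% as higher. The median was 0.67 log2. The largest rises were those of MYOZ1 (2.74 log2, SE 0.25, limma adjusted p = 5.19e-06) and LMOD2 (2.14, SE 0.30, 0.000228). MYBPC1 (2.02, SE 0.13, 4.83e-07), MYOM2 (2.02, SE 0.13, 3.83e-07) and MYOM1 (1.29, SE 0.11, 3.54e-06) came next. By role, 7 of 9 Z-disc genes, 4 of 6 thick filament and M-band genes, 3 of 6 thin filament genes, 3 of 5 LIM and PDZ genes, 2 of 3 ankyrin and Xin genes and 2 of 5 assembly genes passed. FHL3 was the one that fell, by 0.72 log2 (SE 0.17, limma adjusted p = 0.00871), from 26.7, 22.7 and 25.4 scaled TPM to 13.7, 17.5 and 13.1. Unscaled, 1 of 34 passed, MYOZ1 at 2.22 log2 (limma adjusted p = 0.00756), against 4.87% of all genes.

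From E40 to E50, 6 of 34 passed, all higher, against 1.51% of all genes in either direction and 0.975% as higher. ACTA1 rose by 1.34 log2 (SE 0.25, limma adjusted p = 0.0175), from 579, 574 and 561 scaled TPM to 1551, 1148 and 1716. MYOZ1 rose by 1.33, DES by 0.88, MYBPC1 by 0.87, NRAP by 0.84 and MYOM2 by 0.59 log2. The count moved with single libraries: it was 2, 3 and 2 without E40 library 1, 2 and 3, and 1, 9 and 2 without E50 library 1, 2 and 3, while the number of all genes called was 202 in the full fit and between 57 and 382 in those 6. Without both E40 library 2 and E50 library 3 it was 0 in limma, with 12 of 34 at an unadjusted p under 0.05 and 39 of all genes called. From E50 to E60 only NRAP passed in limma, at 1.17 log2 (SE 0.14, limma adjusted p = 0.00204), against 0.817% of all genes. NRAP went from 8.31, 6.38 and 8.09 to 18.7, 20.9 and 15.5 scaled TPM, with no overlap. Without the scaling 0 of 34 passed in limma in either step, against 0.0075% and 0.06% of all genes, and at an unadjusted p under 0.05 the limma fit gave 0 from E40 to E50, against 2.75% of all genes, and 21 from E50 to E60, against 14.4%.

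From E60 to E70, 7 of 34 passed, all higher, against 1.73% of all genes in either direction and 1.17% as higher. MYBPC2 rose by 2.14 log2 (SE 0.21, limma adjusted p = 7.65e-05), from 0.719, 1.37 and 0.974 scaled TPM to 8.84, 7.01 and 7.68. ACTN3 rose by 2.01 log2 (SE 0.33, limma adjusted p = 0.00565), from 3.37, 1.76 and 4.82 to 17.5, 11.2 and 19.2. In both fast-type genes the stages did not overlap. TPM1 rose by 1.02, PDLIM3 by 0.93 and CAPN3 by 0.84 log2, followed by NRAP and MYOT. Without E70 library 3 the count was 4. With unscaled TPM 0 passed in limma, against 0.0825% of all genes, and 2 had an unadjusted p under 0.05, against 2.89% of all genes.

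From E70 to E95, 11 of 34 passed, 8 higher and 3 lower, against 13.6% of all genes in either direction and 6.84% as higher, so that the median of the 34 was 0.09 log2. The largest changes were in MYBPC2 (2.30 log2, SE 0.21, limma adjusted p = 1.03e-05), MYBPH (-2.25, SE 0.24, 3.09e-05) and TCAP (2.00, SE 0.25, 0.000126). MYOZ1 rose by 1.21 and PDLIM3 by 1.12 log2, while ACTC1 fell by 0.73 (SE 0.14, limma adjusted p = 0.00315) and SMYD1 by 0.39 log2. In the unscaled values 1 passed, MYBPH at -2.77 log2 (limma adjusted p = 0.0175), against 0.285% of all genes.

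**Figure D3:**
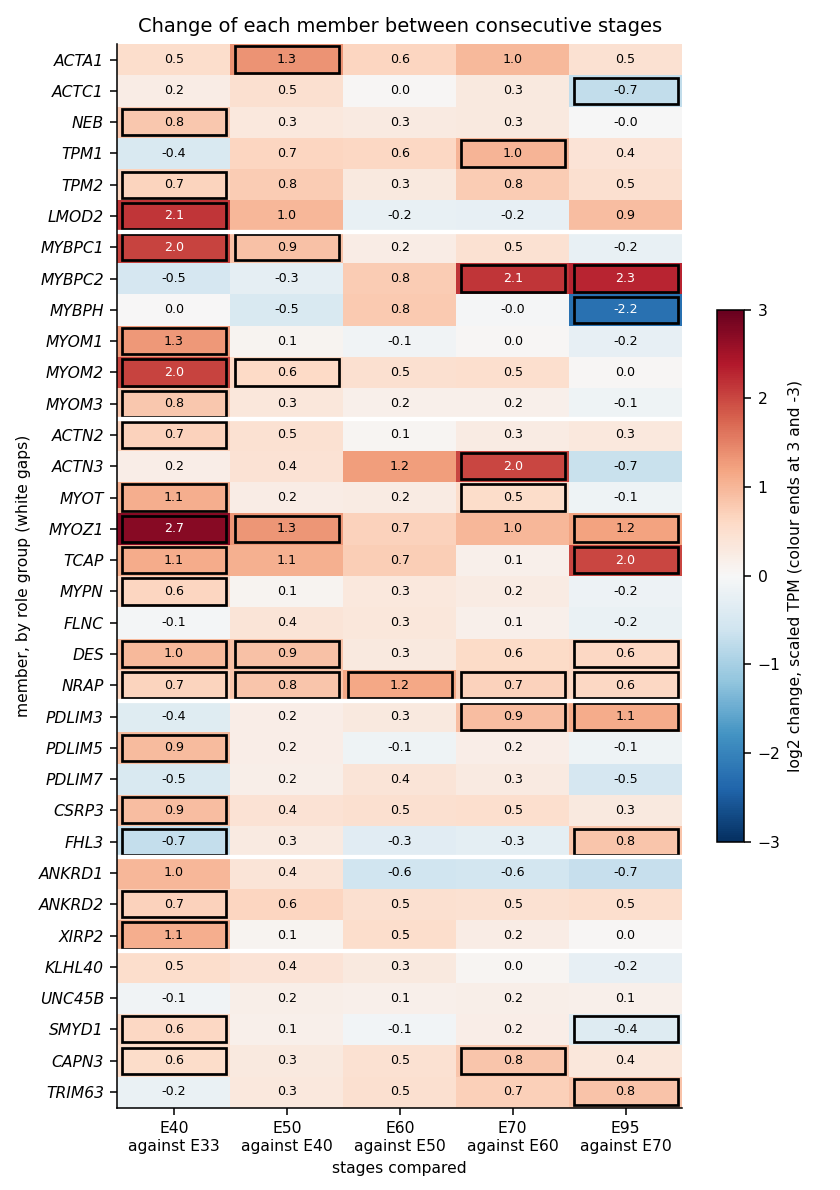
Change in log2(scaled TPM + 1) between each stage and the one before, for each of the 34 measured genes, with boxes around changes that passed limma at an adjusted p of 0.05. Boxes number 21, 6, 1, 7 and 11 over the 5 steps, and MYBPC2 is boxed in the last 2 steps.

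The timing was also tested as 1 value per gene, the change from E60 to E95 minus the change from E33 to E60. It passed for 20 of 34, 3 higher and 17 lower, against 11.6% of all genes in either direction and 5.19% as higher, with a median of -0.97 log2. Genes whose rise was larger in the first part included MYBPC1 (-2.88 log2, SE 0.23, limma adjusted p = 3.58e-06), MYOM2 (-2.55, SE 0.22, 6.29e-06), MYOZ1 (-2.55) and LMOD2 (-2.22). MYBPH (-2.64) and ANKRD1 (-2.04) were also lower, both with lower means at E95 than at E60. The 3 that passed as higher were MYBPC2 (4.44 log2, SE 0.36, limma adjusted p = 3.75e-06), PDLIM3 (1.91, SE 0.26, 0.000228) and FHL3 (1.34, SE 0.30, 0.00835). FHL3 had means of 24.9 scaled TPM at E33, 13.7 at E60 and 20.5 at E95, so its value combines a lower E60 with a higher E95. In the deposited TPM 1 of 34 passed, MYBPC2 at 3.98 log2 (limma adjusted p = 0.00518), against 0.705% of all genes.

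Members of 5 pairs of related genes were set against each other inside each library. The measure was log2 of the ratio of their scaled TPM with 0.1 added to both. The scaling of the library nearly cancels in it, except where a gene is near 0, as ACTN3 was early. With 3 libraries against 3 the exact two-sided permutation test cannot go below p = 0.1, and all 5 pairs gave p = 0.1 between E33 and E95 (0.1 after Benjamini-Hochberg adjustment over the 5), with no overlap in 5 of 5. ACTA1 to ACTC1 went from -2.30 ± 0.20 (SD, n = 3) at E33 through -1.97, -1.12, -0.51 and 0.15 to 1.36 ± 0.25 at E95. The skeletal actin was the lower of the pair up to E60 and the higher from E70, a difference of 3.65 log2 (SE 0.19) or 12.6-fold in the ratio.

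MYBPC2 to MYBPC1 did not move in one direction. The log2 ratio was -4.33 ± 0.73 (SD, n = 3) at E33, -9.23 ± 0.30 at E50 and -2.44 ± 0.33 at E95, so the fast-type gene lost ground against the slow-type gene up to E50 and gained it afterwards. With MYBPC2 at 0.120 to 0.277 scaled TPM at E50, the value there depends on what is added: it was -9.82 with 0.01 and -7.13 with 1, below E33 and E95 in both cases. The difference from E33 to E95 was 1.90 log2, and 1.05 with 1 added. MYOM2 to MYOM3 went from -0.65 ± 0.05 at E33 to 0.63 at E40 and 1.70 ± 0.07 at E95, changing order in the first step. ANKRD2 to ANKRD1 went from -3.50 ± 0.29 to 0.92 ± 0.30, a difference of 4.42 log2 (SE 0.24). ACTN3 to ACTN2 was -8.61 ± 1.00 at E33, -3.77 at E70 and -4.79 ± 0.22 at E95, and ACTN3 stayed the lower of the pair at every stage. Its difference of 3.82 log2 (SE 0.59) rests on values near 0 and was 5.3 with 0.01 added and 1.45 with 1 added. With 0.1 added it was 4.29 on the TPM as deposited.

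**Figure D4:**
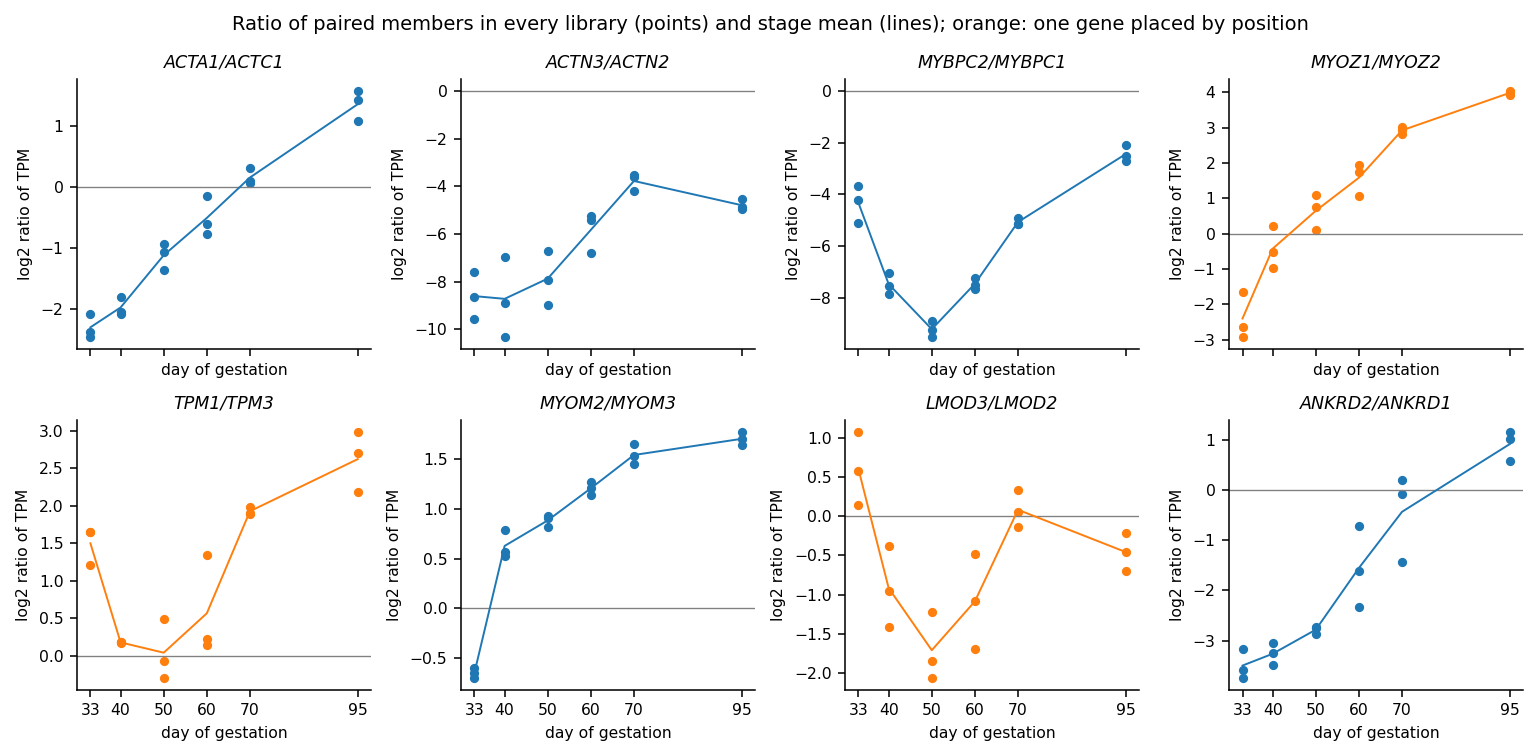
Log2 ratio of the scaled TPM of 2 related genes (0.1 added to each) in each library by stage, with lines through the stage means and orange for pairs in which one gene was placed by its exons. ACTA1 to ACTC1 climbs at every stage from -2.30 to 1.36, and MYBPC2 to MYBPC1 falls to -9.23 at E50 before it climbs.

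Of the 9 genes without a TPM row under their symbol, 7 could be tied to identifiers that the peak lists place in their RefSeq exons, an assignment by position and not by name. KLHL41, a Kelch protein related to KLHL40, had 48.6, 52.4 and 46.3 scaled TPM at E33 and 377, 490.3 and 382 at E95 under ENSSSCG00000033049, a change of 3.05 log2 (SE 0.16, limma adjusted p = 2.15e-09). Of the 7 peaks of that identifier, 5 lie in KLHL41 exons. Titin was split over 2 identifiers. ENSSSCG00000036052 had 555, 570.0 and 589 scaled TPM at E33 and 1404, 1579 and 2438 at E95 (1.62 log2), and ENSSSCG00000037545 had 186, 180.1 and 184 at E33 and 592, 613 and 849 at E95 (1.88 log2). Both titin identifiers had their highest mean at E70, at 2394 and 757. All 8 identifiers passed as higher in limma, against 23.7% of all genes tested. The changes were 2.59 log2 for LMOD3, 2.37 for LDB3, 1.69 for FHL1, 1.11 for TPM3 and 1.09 for MYOZ2. LDB3 is the Z-disc PDZ protein ZASP, and 12 of the 18 peaks of its identifier lie in its exons. By the deposited TPM 2 of the 8 passed, KLHL41 at 1.79 and LMOD3 at 1.35 log2, against 2.64% of all genes as higher. MYOZ1 to MYOZ2 went from -2.40 at E33 to 3.98 at E95 in log2 ratio. HSPB7 had neither a TPM row nor a peak.

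Other sarcomere-associated genes, from a list of 30, also mostly rose. Of 25 tested, 22 passed between E33 and E95, 19 higher and 3 lower, with a median of 1.4 log2. On the TPM as deposited 9 passed, 6 higher and 3 lower, with a median of 0.14. Of all genes 46.7% passed after scaling, 23.7% as higher, and 48.5% passed on the TPM as deposited, 2.64% as higher. TMOD4, a tropomodulin that caps thin filaments, rose by 6.67 log2, and CMYA5, a large Z-disc associated protein, by 5.65 log2. FHOD3, a formin, and OBSL1, an obscurin relative, fell by 0.77 and 0.55 log2. Non-muscle and smooth muscle relatives of the 34, from a list of 20, moved the other way. Of 18 tested, 13 passed, against 46.7% of all genes. Of these, 1 was higher and 12 lower, and the median of the 18 was -0.69 log2. VIM, vimentin, fell by 1.61 and ACTA2, smooth muscle actin, by 1.17 log2, and ACTN4 was the one that rose, by 1.04 log2 after scaling with -0.21 on the TPM as deposited. Unscaled, 17 of the 18 relatives passed as lower, with a median of -1.86, where 45.8% of all genes passed as lower with a median of -1.02.

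The m6A peak lists showed which transcripts of the sarcomere carried enriched regions. Of the 34 genes, 18, 16, 19, 21, 25 and 22 had a peak in the lists from E33 to E95. Of all genes tested 34.8%, 22.5%, 30.4%, 31.4%, 34.4% and 33.7% had one in those lists. Abundant genes carry peaks more often: among genes of at least 10 mean TPM, 17, 15, 18, 19, 22 and 20 of the 29 sarcomere genes had one, against 54.3%, 40.0%, 48.6%, 51.2%, 53.3% and 52.7% of all such genes. With 1 list per stage there is no replicate check of any peak, and a peak not listed is not shown to be absent.

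Peaks in all 6 muscle lists were found for 12 of the 34: NEB, TPM1, TPM2, LMOD2, MYBPC1, MYOT, MYPN, FLNC, DES, PDLIM7, XIRP2 and KLHL40. XIRP1, by its symbol in the peak lists, and TPM3, LMOD3, TTN and LDB3, by position, also had peaks in all 6. Peaks were listed in 0 muscle lists for 7: ACTC1, ACTN3, PDLIM3, CSRP3, FHL3, ANKRD1 and ANKRD2. ACTC1 is in this group although its scaled TPM was never under 1891. In 1 list alone stood ACTA1 (E33, 1.43-fold enrichment of immunoprecipitate over input as the authors' list gives it), MYBPC2 (E70, 4.14-fold), UNC45B (E60, 1.86-fold) and SMYD1 (E70, 1.80-fold). The actin pair thus held 1 weak peak in the muscle lists, while both tropomyosins measured by symbol held peaks at every stage.

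Below are windows of 25 bases at sites shared by all 6 lists, 1 for each of 8 genes with such a site and 2 for XIRP2, read from the RefSeq genome of build Sscrofa11.1 on the transcribed strand. They show what the recurrent enriched regions hold near their middle: the capitals mark the DRACH word nearest the centre of the site's highest peak (A, G or T, then A or G, then A, then C, then A, C or T), the sequence that the methyltransferase prefers. Which A is methylated was not measured.
XIRP2 coding exon 7, chr15:73731380-73731404, plus strand: gagaaaagagTAACAataaagttgc
XIRP2 coding exon 7, chr15:73732973-73732997, plus strand: gcggccaaccGGACTgttcagatgg
TPM2 coding exon 3, chr1:236405883-236405907, minus strand: aggaggagctGGACCgggcgcagga
LMOD2 coding exon 2, chr18:23806230-23806254, minus strand: gaagaggaaaGAACAgttgaaaacg
FLNC 5' UTR, chr18:19787401-19787425, minus strand: gcccccagccAGACCccagccggca
MYOT coding exon 2, chr2:139902686-139902710, plus strand: tactctagccAGACCaaacagtctt
KLHL40 coding exon 2, chr13:26203625-26203649, plus strand: tgttcctgcaGGACCtcatcttcat
MYBPC1 coding exon 4, chr5:82627037-82627061, minus strand: aaggaggccgGGACTacaccagcaa
MYPN 113 bases past the stop codon, chr14:71387126-71387150, plus strand: ccacgctgccGGACCtgtggcaagg
DES 3' UTR, chr15:121435263-121435287, plus strand: agtcagaaggAGACAgggtgggcga

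The fold enrichment of the first XIRP2 site was 4.16, 4.80, 8.5, 5.60, 5.83 and 6.49 from E33 to E95. The TPM2 coding site had 2.56 and 3.24 at E33 and E40, then 8.18, 6.07, 6.58 and 4.05, so its highest value came at E50 as at the XIRP2 site. The LMOD2 site had 3.05 at E33 and between 5.04 and 6.77 in the other lists, and the DES 3' UTR site stayed between 2.27 and 3.17. Enrichment differs between lists for all genes too, with list medians of 3.51, 4.23, 4.88, 4.06, 4.22 and 4.42 from E33 to E95, and no test of these differences is possible. The second XIRP2 window and the MYBPC1 window hold the 5 letters GGACT, and 126 of the 429 muscle peaks of these genes (29.4%) did, against 28.1% to 32.3% of all peaks in the muscle lists. A DRACH word stood in 415 of 429 (96.7%), against 95.3% to 96.4% of all peaks.

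Peaks in the sarcomere genes were mostly of low enrichment within their lists. The median fold was 2.57, 3.29, 3.53, 2.85, 2.89 and 2.75 from E33 to E95, at the median percentile 22.9, 27.6, 26.9, 22.0, 21.9 and 16.5 of all peaks in the same list. The highest peak at each stage lay in XIRP1 at E33 (5.74-fold), LMOD2 at E40 (7.46), XIRP2 at E50 (8.5) and E60 (6.09), TPM2 at E70 (6.58) and NRAP at E95 (13.8). The NRAP peak, in the 5' UTR of exon 1 at chr14:124017678-124017798, was listed at E95 alone. Counting peaks, NRAP had 0 in each of the lists of E33, E40 and E50, then 1, 2 and 7 in those of E60, E70 and E95, over the stages in which its level rose from about 2 to at least 36.2 scaled TPM. The part of that level in the number of peaks was not tested.

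By position on the RefSeq transcripts, 300 of the 429 muscle peaks (69.9%) were centred in coding sequence, 45 (10.5%) within 200 bases of the stop codon, 41 (9.56%) elsewhere in the 3' UTR and 24 (5.59%) in the 5' UTR. A region listed at several stages is counted once in each list. The places of all peaks in the lists were not counted here, so these shares show no preference of the sarcomere genes. Summed over the 6 lists, XIRP2 alone had 76 peaks (between 8 and 15 per list), NEB 49, XIRP1 29 and FLNC 24. XIRP1 with XIRP2 made up 24.5% of the 429. Of the 76 XIRP2 peaks, 61 were centred in a coding exon of 9355 bases, and 166 of the 429 (38.7%) were centred in exons of over 1000 bases. Merging peaks that overlap by at least 1 base gave 107 sites, of which 35 were in all 6 lists: 25 in coding sequence, 5 in the 3' UTR, 3 near the stop codon, 1 in the 5' UTR and 1 in an intron. XIRP2 held 7 of those 35, and FLNC and NEB 4 each.

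**Figure D5:**
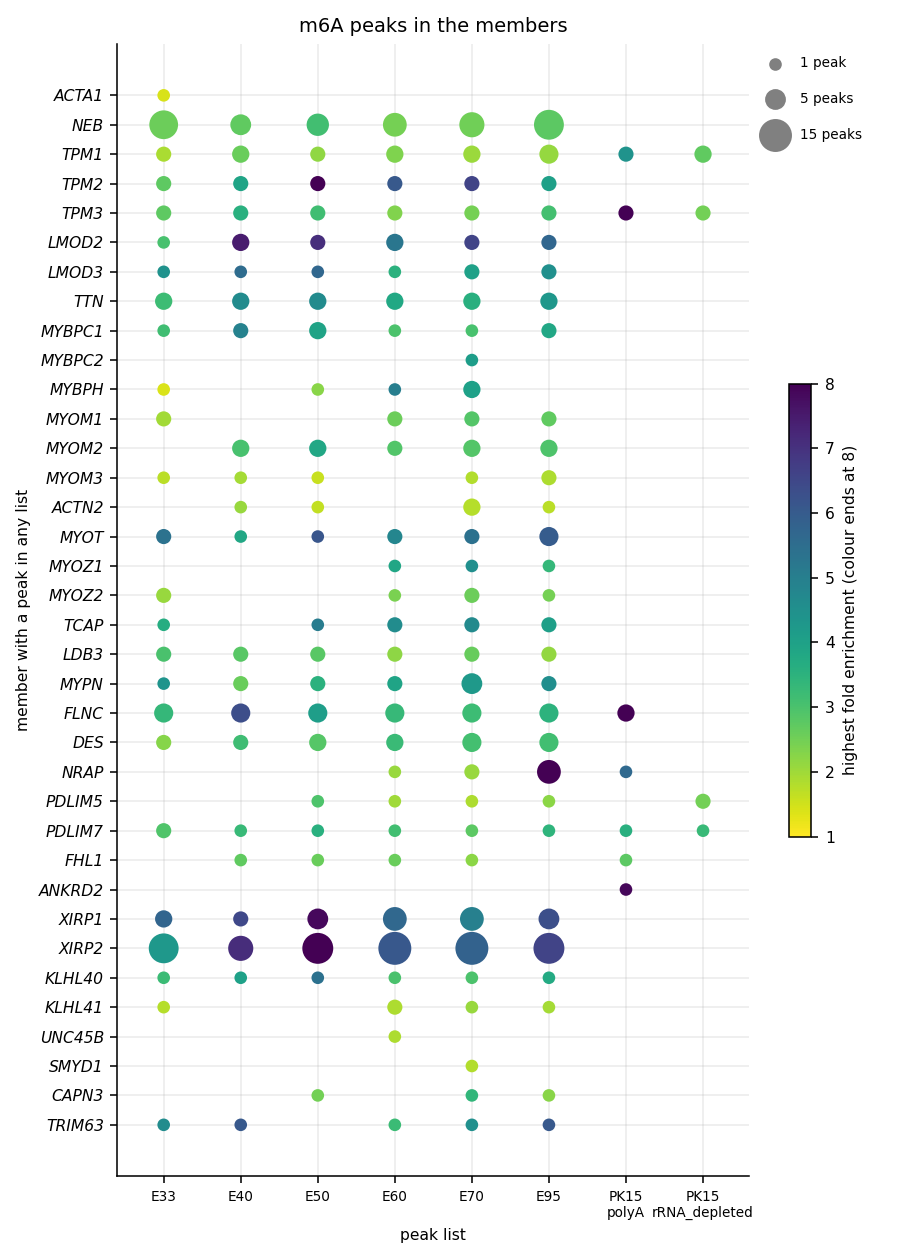
Peaks of the sarcomere genes in the 6 muscle lists and the 2 PK15 lists, with dot size for the number of peaks and colour for the highest fold enrichment (the scale ends at 8). The 12 measured genes found in all 6 muscle lists, with XIRP1, TPM3, LMOD3, TTN and LDB3, have dots in every muscle column. ANKRD2 has a PK15 dot alone, and the PK15 columns hold few dots.

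In PK15, 5 of the 34 had a peak in the polyA list and 3 in the ribosomal RNA-depleted list, against 57.1% and 37.1% of all genes tested. The polyA list held TPM1 (4.40-fold at the highest), PDLIM7 (3.58), FLNC (19.7), NRAP (5.64) and ANKRD2 (7.87), and the ribosomal RNA-depleted list TPM1, PDLIM7 (3.27) and PDLIM5. TPM1, PDLIM7 and FLNC are expressed beyond striated muscle. NRAP and ANKRD2, whose products are described above in myofibrils and slow fibres, had polyA peaks too. By RefSeq exons 4 of the 5 held a polyA peak, and ANKRD2 had no RefSeq position to check. Among the sites found in all 6 muscle lists, those of FLNC in its 3' UTR and 5' UTR and both sites of TPM1 overlapped a PK15 peak, as did both sites of TPM3. PK15 levels were not analysed here, so that a gene without a PK15 peak cannot be told apart from a gene not expressed there.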

How the data were processed

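Input libraries of 6 stages (3 each, 18 in all) gave the levels. The deposited expression values are TPM per gene identifier; per the submitters' processing notes the tools include Trimmomatic and HISAT2 and the genome is Sscrofa11.1, while the counting tool is not given in the sources used here. The deposited peak lists give a fold enrichment (ratio) per peak as the authors' caller wrote it, 1 list per stage or PK15 preparation; the caller and any pooling of libraries are not given in the sources used here. TPM were multiplied by median-ratio factors (0.50 to 3.32), filtered at a mean of 1 deposited TPM, and tested as log2(value + 1) with limma 3.58.1 (lmFit, eBayes with trend, R 4.3.3), 1 mean per stage and 12 residual degrees of freedom, called at an adjusted p of 0.05. On simulated data with the real genes the E95 against E33 step recovered most seeded changes. Peaks were placed on RefSeq transcripts, since 80.7% to 91.0% of their junctions matched RefSeq introns and 0 passed a chromosome end. Within-stage Spearman correlations were 0.91 to 0.94. The same-numbered libraries of different stages did not deviate together. Values were given in every library for the 2 genes of each role group with the largest change, those lower or not called, and the pairs; sites shown were chosen from those in all 6 lists. The rule for the 43 genes uses no measured value, but it and the lists were drawn up with earlier results of these data known. Sequences of promoters and proteins were not used here.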

Additional observations from a re-analysis of the deposited data

How the results depend on the processing

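Depth is unknown, peak lists have no replicates, and 3 libraries a stage give an exact p of 0.1 at the least. Of the 34 genes, 15 kept direction and call between E33 and E95 under every alternative (ACTA1, ACTN3, ANKRD2, CAPN3, CSRP3, DES, LMOD2, MYBPC1, MYBPC2, MYBPH, MYOM2, MYOZ1, NRAP, TCAP and TPM2). Counts of called genes are given in the order across stages, E95 against E33, the 5 consecutive steps, and late minus early. Except for the TPM as deposited, the share of all genes called is not given beside them in this section. Those counts show only how a setting moves the number called. On the TPM as deposited the counts were 19, 18, 1, 0, 0, 0, 1 and 1 in limma. The shares of all genes were 20.1%, 48.5%, 4.87%, 0.0075%, 0.06%, 0.0825%, 0.285% and 0.705%. Signs turned there for ACTC1 (-0.97), MYOM1 (-0.18), MYPN (-0.023), FLNC (-0.66), PDLIM5 (-0.0093), KLHL40 (-0.22), UNC45B (-0.70) and SMYD1 (-0.72). The all-gene median on that scale was -1.02, and its part in these signs was not tested. Quantile normalization turned ACTC1 (-0.61), and rescaling without the 2 abundant genes turned ACTC1 (-0.37), FLNC (-0.065), UNC45B (-0.12) and SMYD1 (-0.15); the cause was not tested. The E40 to E50 count was 0 with only the compared stages fitted and 0 without both libraries high in ENSSSCG00000032599; the E50 to E60 count was 2 after that rescaling, 2 with a pseudocount of 0.1 and 0 with only the compared stages; the E60 to E70 count was 3 and 2 after rescaling and with only the compared stages. Leaving out 1 library at a time gave 34 to 34, 30 to 31, 17 to 22, 1 to 9, 1 to 2, 4 to 9, 10 to 13 and 18 to 24; the E50 to E60 count was 2 without E95 library 3. The ratio differences ranged from 3.55 to 3.79 (ACTA1 to ACTC1), 3.33 to 4.32 (ACTN3 to ACTN2), 4.30 to 4.6 (ANKRD2 to ANKRD1), 1.5 to 2.22 (MYBPC2 to MYBPC1) and 2.32 to 2.38 (MYOM2 to MYOM3). ACTN3 to ACTN2 was 5.3 with 0.01 added, and with 1 added the values were 1.45 (ACTN3 to ACTN2), 1.05 (MYBPC2 to MYBPC1), 2.28 (MYOM2 to MYOM3) and 3.19 (ANKRD2 to ANKRD1). With pairs placed by position, added after seeing the data, 8 of 8 did not overlap, and with the 8 position-placed identifiers the counts were 42, 38, 28 and 26 (across stages, E95 against E33, E40 against E33, late minus early). Genes with a peak above their list's median fold numbered 5, 5, 6, 6, 8 and 6 in muscle and 2 and 0 in PK15. The share of all genes with such a peak is not given here, so these counts set nothing apart in the sarcomere genes. With the replicate number as a block the counts were 34, 30, 21, 5, 1, 6, 10 and 19, and the numbers did not pair the libraries (correlations of deviations -0.124 to 0.101, with 9 of 18 libraries correlating best with their own number).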
